A study of Rattus norvegicus with 8 samples.

Results

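The genes described here are Nfe2l2, which encodes the transcription factor Nrf2, and 6 genes of the antioxidant defence: Hmox1, Nqo1, Gclc, Cat, Sod1 and Sod2. They were chosen by name for their function, not by a rule on their measured values, but with earlier results of these data known. They were found by Ensembl gene ID among the 32623 genes of the deposited count matrix. All 7 had counts in every library, from 153 to 7240, and all 7 were among the 16867 genes that passed the filter on low counts and were tested. RNA was sequenced from hippocampal tissue of 32-week-old rats. Inbred SHR rats (spontaneously hypertensive) were bred for high blood pressure, and inbred WKY rats (Wistar-Kyoto) come from the same founder stock and are their usual normotensive control. There were 4 libraries per strain, named SHR1 to SHR4 and WKY1 to WKY4, from rats under pentobarbital anaesthesia with no other treatment stated. The labels do not give sex, and do not say whether each library came from a separate animal. The spread behind every p-value may therefore be technical. The strains differ by descent across the genome as well as in blood pressure, so these cannot be told apart. In bulk tissue, fewer cells of a type and less RNA per cell cannot be told apart either.

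Nrf2 is held in the cytoplasm by Keap1, which directs it to degradation. Oxidants and electrophiles modify Keap1, and Nrf2 then enters the nucleus and binds antioxidant response elements together with small Maf proteins. Among its known targets are Hmox1, whose enzyme breaks down haem, Nqo1, a quinone reductase, and Gclc, the catalytic subunit of the enzyme that starts glutathione synthesis. Cat encodes catalase, the peroxisomal enzyme that splits hydrogen peroxide. Sod1 and Sod2 encode the cytosolic and the mitochondrial superoxide dismutase, which turn superoxide into hydrogen peroxide.

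Cat was the gene with the largest strain difference of the 7. Its level in SHR was 35.7 ± 7.96 CPM, against 20.6 ± 1.76 CPM in WKY (mean ± SD of 4 libraries). CPM is the scaled share of a library's counts, written as counts per 1000000. Nfe2l2 lay the other way, with 18.6 ± 2.45 CPM in SHR against 24.4 ± 3.14 CPM in WKY. Every SHR library lay above every WKY library for Cat and below every WKY library for Nfe2l2, 2 of the 7 genes, where 6.72% of all genes tested were so separated. For Nqo1 the level was 12.6 ± 1.06 CPM in SHR against 14.6 ± 1.28 CPM in WKY, with overlap only between WKY4 and SHR2. Hmox1, Gclc, Sod1 and Sod2 overlapped between the strains. In edgeR over all 8 libraries, 0 of the 7 passed an adjusted p under 0.05, where 0.0356% of all genes tested did. An unadjusted p under 0.05 was found for 2 of the 7, Cat and Nfe2l2, where the share over all genes was 12.1%. Limma-voom called 0 of the 7, beside 0.0296% of all genes, and DESeq2 called 1, Cat, beside 1.98% of all genes. Without WKY4, Cat alone of the 7 passed in edgeR, where 2.69% of all genes did.

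Total counts ran from 45048841 to 49560687 in SHR and from 53045139 to 53699673 in WKY, so every SHR library was the smaller. The part of this difference in the results was not tested. WKY4 stood apart from the other WKY libraries. The first principal component, with 26.7% of the variance of log2 CPM, gave it a score of -36.7, beside the SHR libraries at -28.9 to -11.5, while WKY1 to WKY3 scored 30.5 to 40.9. The strain difference of each gene is therefore given with and without WKY4. The files name genes by Ensembl ID only, and 0 IDs could be paired with a symbol from the reference table. Markers of the hippocampus and of other cell types, and 55 further pathway genes such as Keap1, Gclm and Txnrd1, were therefore not checked.

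Promoter sequences were matched by symbol for 6 of the 7 genes. Shown are the 250 bases before the start of Cat and Nfe2l2, whose strains did not overlap, of Nqo1, whose strains did not overlap without WKY4, and of Sod2, which held a match to the core of the antioxidant response element. They come from RefSeq on build GRCr8, another build than the rn6 used for the counts, and are reference sequence of neither strain. Cat lies at chr3:110329527-110329776, Nfe2l2 at chr3:81029000-81029249, Nqo1 at chr19:52220268-52220517 and Sod2 at chr1:50050169-50050418, all on the minus strand. They are printed 5′ to 3′, and capitals mark matches on either strand to TGACNNNGC (the response element core), CCAAT (the CCAAT box), TATAAA (the TATA box) or GGGCGG (the GC box).
Cat: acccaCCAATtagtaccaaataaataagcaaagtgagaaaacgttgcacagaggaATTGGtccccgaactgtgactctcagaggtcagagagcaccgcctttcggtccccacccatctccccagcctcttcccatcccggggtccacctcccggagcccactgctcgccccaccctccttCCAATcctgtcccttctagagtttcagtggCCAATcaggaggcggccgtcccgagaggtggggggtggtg
Nfe2l2: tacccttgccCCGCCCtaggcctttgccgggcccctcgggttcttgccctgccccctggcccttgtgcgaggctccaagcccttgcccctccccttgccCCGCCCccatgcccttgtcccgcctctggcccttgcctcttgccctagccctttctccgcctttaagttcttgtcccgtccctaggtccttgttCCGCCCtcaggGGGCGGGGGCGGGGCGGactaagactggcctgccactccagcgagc
Nqo1: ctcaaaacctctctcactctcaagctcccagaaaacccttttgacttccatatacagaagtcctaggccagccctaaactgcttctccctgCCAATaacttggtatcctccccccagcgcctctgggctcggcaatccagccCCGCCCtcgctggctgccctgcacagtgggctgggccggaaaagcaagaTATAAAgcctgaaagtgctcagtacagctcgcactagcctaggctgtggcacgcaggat
Sod2: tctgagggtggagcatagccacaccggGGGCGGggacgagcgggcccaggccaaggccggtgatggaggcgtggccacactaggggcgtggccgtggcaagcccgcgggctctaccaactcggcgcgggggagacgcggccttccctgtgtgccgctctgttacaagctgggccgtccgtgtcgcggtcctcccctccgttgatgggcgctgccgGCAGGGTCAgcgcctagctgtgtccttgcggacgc

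The Cat sequence held 4 CCAAT boxes, which began 245, 195, 70 and 40 bases before the start, and no match to the other motifs. The Nfe2l2 sequence held 6 GC boxes, of which 4 began within 57 bases of the start, and the last 2 share a base. Nqo1 held 1 CCAAT box, 1 TATA box and 1 GC box. Sod2 held 1 GC box and, 35 bases before the start, 1 response element core, on the opposite strand. Matches of different motifs did not overlap. Among all 33469 RefSeq sequences of this length, which include several starts of some genes, 10.1% held the response element core, 34.0% a CCAAT box, 12.9% a TATA box and 30.5% a GC box. Within these 250 bases, 1 of the 6 members with a sequence held the response element core, Sod2. Cat, Nfe2l2, Nqo1, Gclc and Sod1 held none there. Bases farther from the start were not searched, so an element elsewhere would be missed. A match is a description of these letters and is not evidence of binding.

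**Figure D1:**
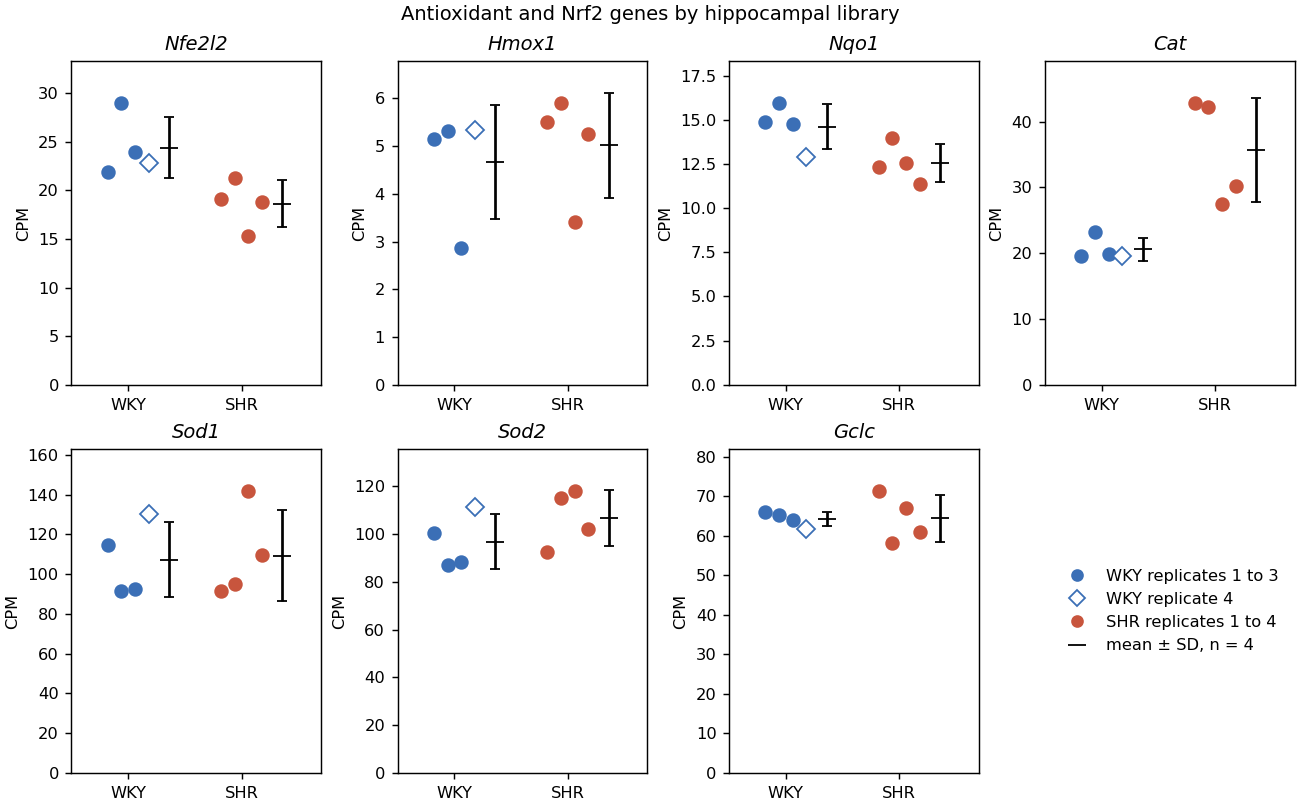
Level of each gene in CPM (vertical axes, each from 0) by strain, with 1 point per library in replicate order and the mean ± SD of 4 libraries beside them; the open diamond is WKY replicate 4. For Cat the SHR points lie at 27.5 to 42.8 CPM, above the WKY points at 19.6 to 23.2 CPM, and for Nfe2l2 they lie below the WKY points.

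The transcription factor gene itself was lower in all SHR libraries. Nfe2l2 (ENSRNOG00000001548) was at 19.1, 21.2, 15.3 and 18.8 CPM in SHR1 to SHR4 and at 21.9, 28.9, 23.9 and 22.8 CPM in WKY1 to WKY4. The highest SHR library, SHR2, was just under the lowest WKY library, WKY1, so the gap between the strains was narrow. WKY4 lay inside the range of the other WKY libraries. On the log2 scale, SHR differed from WKY by -0.39 ± 0.13 (fitted fold change ± SE, as for all fold changes below), which is 1.31-fold lower. Its 95% interval of -0.67 to -0.11 is for this gene alone and makes no allowance for the number of genes. Nfe2l2 did not pass the edgeR quasi-likelihood test (adjusted p = 0.28) and ranked 712 by p among the genes tested. Without WKY4 the fold change was -0.42 ± 0.14 on that scale (edgeR, adjusted p = 0.145). The unadjusted p of Nfe2l2 was nearly the same in both fits (edgeR, 0.0119 over all 8 libraries and 0.0118 without WKY4). Its rank by p without WKY4 was 1385.

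Nqo1 (ENSRNOG00000012772), the quinone reductase, was at 12.3, 14.0, 12.6 and 11.4 CPM in SHR1 to SHR4 and at 14.9, 15.9, 14.7 and 12.9 CPM in WKY1 to WKY4. WKY4 was the lowest WKY library and lay below SHR2. The other WKY libraries were all above SHR, and the other SHR libraries were all below WKY4. Fitted over all libraries, log2 expression was lower in SHR by a fold change of -0.22 ± 0.11 (1.16-fold; edgeR, adjusted p = 0.474). Without WKY4 it was -0.28 ± 0.11, or 1.21-fold lower, and the strains no longer overlapped (edgeR, adjusted p = 0.24). Nqo1 did not pass in either fit.

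Hmox1, the inducible haem oxygenase, had the fewest counts of the 7. Relative to its mean it had the widest spread in WKY (coefficient of variation, SD over mean, 25.7%). Hmox1 (ENSRNOG00000014117) was at 5.51, 5.90, 3.40 and 5.25 CPM in SHR1 to SHR4 and at 5.15, 5.31, 2.87 and 5.33 CPM in WKY1 to WKY4. SHR3 and WKY3 were low, and the other 6 libraries lay between 5.15 and 5.90 CPM, with the strains mixed. Its log2 fold change of 0.10 ± 0.24 did not pass (edgeR, adjusted p = 0.905). The 95% interval of -0.43 to 0.64 holds changes up to 1.56-fold. Without WKY3 the sign turned, to -0.07 ± 0.21, and without WKY4 it was 0.17 ± 0.26 (edgeR, adjusted p = 0.935 and 0.798).

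Gclc was nearly level between the strains. Gclc (ENSRNOG00000006302) was at 71.2, 58.3, 67.1 and 60.9 CPM in SHR1 to SHR4 and at 65.9, 65.2, 63.9 and 61.8 CPM in WKY1 to WKY4. All WKY libraries lay inside the SHR range, and the SHR libraries were the more scattered (coefficient of variation 9.12% against 2.85%), a difference that was not tested. On the log2 scale 0.00 ± 0.08 was fitted (edgeR, adjusted p = 0.989), with a 95% interval of -0.17 to 0.18. This is the narrowest interval of the 7, from 0.888-fold to 1.13-fold. The sign was negative without SHR1 (-0.04), SHR3 (-0.00) or WKY4 (-0.01).

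Cat (ENSRNOG00000008364) was at 42.8, 42.2, 27.5 and 30.2 CPM in SHR1 to SHR4 and at 19.6, 23.2, 19.9 and 19.6 CPM in WKY1 to WKY4. The SHR libraries fell at 2 levels, with SHR1 and SHR2 high and SHR3 and SHR4 nearer to WKY, while the WKY libraries lay close together. WKY4 was at the WKY level here, unlike its place on the first principal component. SHR was 1.73-fold higher, a log2 fold change of 0.79 ± 0.15, with a 95% interval for this gene alone of 1.37-fold to 2.19-fold. Cat ranked 49 by p of 16867 genes and did not pass over all 8 libraries (edgeR, adjusted p = 0.131). Its fold change was larger in size than that of 94.9% of the genes tested. An exact permutation test over 70 assignments, two-sided, gave p = 0.0286 for Cat and for Nfe2l2, the smallest this design can give. Full separation of the strains fixes this value, so it restates that the libraries do not overlap. Without WKY4 it was 0.0571 for both (exact permutation test, 35 assignments). The strains then differ in number of libraries, so full separation does not fix that value, and it is not the smallest possible there.

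The call for Cat depended on the tool and on WKY4. Without WKY4 its log2 fold change of 0.77 ± 0.17, or 1.71-fold higher in SHR, passed in edgeR (adjusted p = 0.0442). Its unadjusted p was larger there, at 0.00105 against 0.000385 over all 8 libraries (edgeR), and its rank by p went from 49 to 403. The share of all genes tested that passed was 2.69% there, against 0.0356% over all 8 libraries. DESeq2 called Cat over all 8 libraries (adjusted p = 0.000393) and without WKY4 (adjusted p = 0.000631). Without WKY4 it called 7.14% of all genes tested. In limma-voom Cat did not pass over all 8 libraries (adjusted p = 0.175) or without WKY4 (adjusted p = 0.0574), where it called 0 of the 7 beside 2.56% of all genes. Over 19 alternatives its log2 fold change ran from 0.70 to 0.91, and 4 called it, with adjusted p-values from 0.000393 to 0.381.

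**Figure D2:**
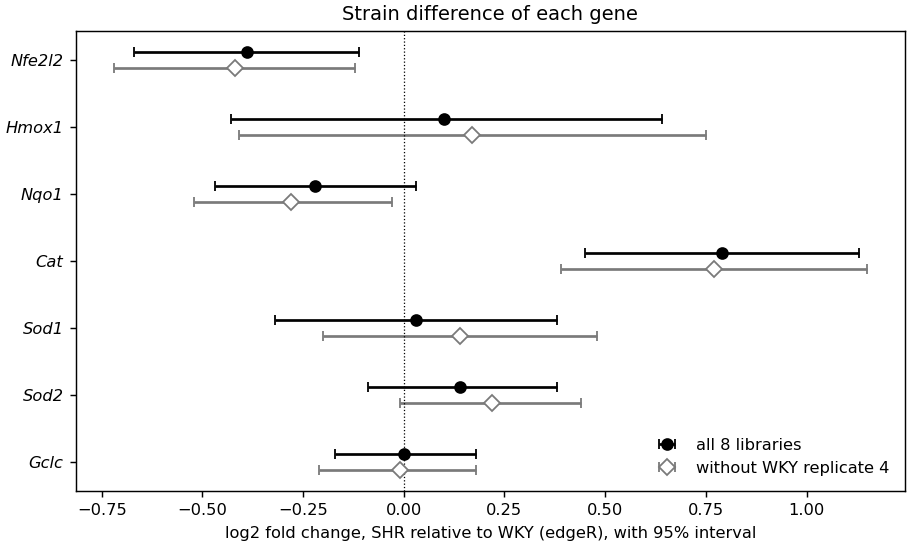
Log2 fold change of each gene, SHR relative to WKY (horizontal axis), with its 95% interval from edgeR over all 8 libraries (filled circles) and without WKY replicate 4 (open diamonds). The Cat intervals lie above 0 and the Nfe2l2 intervals below 0 in both fits, and the Nqo1 interval excludes 0 only without WKY replicate 4; the intervals are not adjusted for the number of genes tested.

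Both superoxide dismutase genes varied more between libraries than between strains. Sod1 (ENSRNOG00000002115) was at 91.4, 94.8, 141.6 and 109.6 CPM in SHR1 to SHR4 and at 114.6, 91.4, 92.5 and 130.4 CPM in WKY1 to WKY4. SHR3 and WKY4 were the highest in their strains, and the strains overlapped almost wholly. Fitted over all libraries, its log2 fold change was 0.03 ± 0.16 (edgeR, adjusted p = 0.966), with a 95% interval of -0.32 to 0.38. Its sign turned without SHR3 (-0.11), WKY2 (-0.04) or WKY3 (-0.03), and without WKY4 it was 0.14 ± 0.15 (edgeR, adjusted p = 0.715).

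Sod2 (ENSRNOG00000019048), the gene of the mitochondrial enzyme, was at 92.6, 115.0, 117.9 and 102.1 CPM in SHR1 to SHR4 and at 100.5, 87.0, 88.2 and 111.4 CPM in WKY1 to WKY4. SHR1 lay among the WKY libraries and WKY4 among the SHR libraries. On the log2 scale SHR differed by 0.14 ± 0.11 (edgeR, adjusted p = 0.625), with a 95% interval of -0.09 to 0.38. Without WKY4 it was 0.22 ± 0.10 (edgeR, adjusted p = 0.31). Sod2 did not pass in either fit.

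The 7 genes were also set beside all genes tested. Without WKY4, 3 of the 7 had an unadjusted p under 0.05 and did not overlap (Cat, Nfe2l2 and Nqo1), and each of these shares was 17.2% over all genes. These counts of 7 genes are a description and were not tested against those shares. The median log2 fold change of the 7 was 0.03, beside 0.00 over all genes, and the median size without sign was 0.14 for both. Without WKY4 the median of the 7 was 0.14, beside 0.00 over all genes, and the median size was 0.22, beside 0.17.

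**Figure D3:**
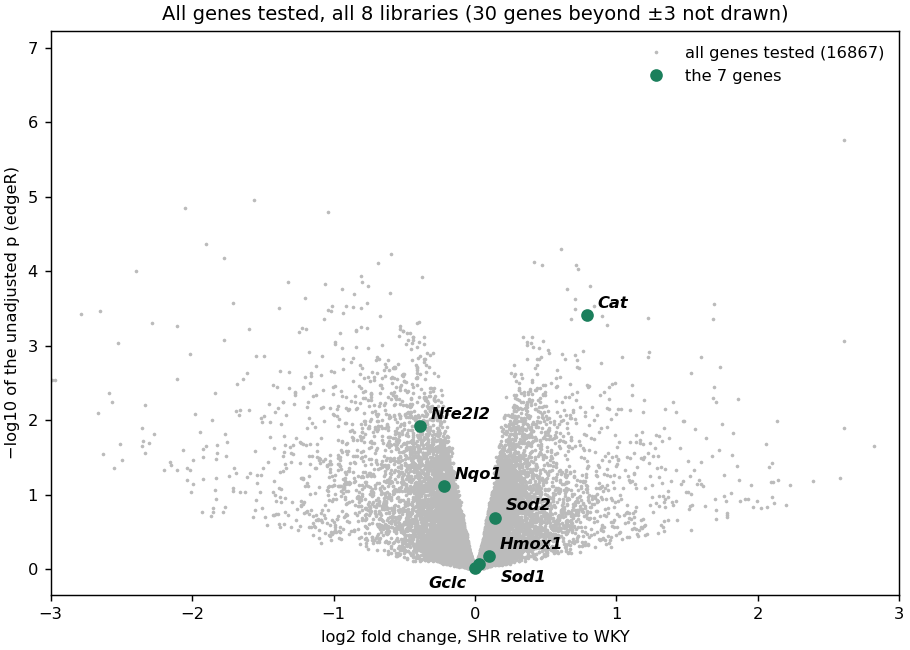
Each grey point is 1 of the 16867 genes tested over all 8 libraries, by log2 fold change, SHR relative to WKY (horizontal axis), and −log10 of the unadjusted edgeR p (vertical axis); 30 genes beyond ±3 are not drawn. Cat lies apart from the dense cloud at 0.79, Nfe2l2 lies within it at -0.39, and Hmox1, Sod1 and Gclc lie near its base.

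Cat and Nfe2l2 were also compared within each library, where the scaling of the library cancels. This comparison was chosen after their values were seen, and 2 genes that each separate the strains in opposite directions must separate them here too. The log2 CPM of Cat minus that of Nfe2l2 was 0.68 to 1.16 in SHR and -0.32 to -0.15 in WKY. The mean ± SD of 4 libraries was 0.92 ± 0.20 in SHR against -0.24 ± 0.07 in WKY, a difference of 1.16, or 2.23-fold. Without WKY4 it was 1.16 as well. For Nqo1 minus Nfe2l2 the ranges overlapped, at -0.72 to -0.29 in SHR and -0.86 to -0.55 in WKY. CPM does not allow for transcript length, so these differences say nothing of which gene is the more abundant.

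Relations between the genes over the libraries were tested for all 21 pairs. The strains form separate clusters for Cat and Nfe2l2, so the strain mean was first removed from each gene, and exact permutation tests exchanged libraries within strains (576 assignments, two-sided). All values of a library share its RNA and its scaling. Of the 21 pairs, 4 had an unadjusted p under 0.05 and 0 passed after adjustment over the 21. Within strains, Cat was higher where Nfe2l2 was higher, with Pearson r = 0.79 (exact permutation p = 0.0122, adjusted p = 0.128) and Spearman rho = 0.76 (exact permutation p = 0.0139, adjusted p = 0.0973). This is the opposite sign to their difference between strains, where Cat was higher and Nfe2l2 lower in SHR. Without the 2 libraries farthest from the median of Nfe2l2, r was 0.64, and without WKY4 it was 0.78 (exact permutation adjusted p = 0.218).

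Sod1 was lower where Cat was higher within strains, with r = -0.79 (exact permutation p = 0.00694, adjusted p = 0.128) and rho = -0.83 (exact permutation p = 0.0104, adjusted p = 0.0973). Without the 2 libraries farthest from the median of Cat, r was -0.72, and without WKY4 it was -0.86 (exact permutation adjusted p = 0.218). Sod1 and Nfe2l2 gave r = -0.82 (exact permutation p = 0.0295, adjusted p = 0.206) and rho = -0.81 (exact permutation p = 0.0312, adjusted p = 0.164), with r = -0.67 without the 2 farthest libraries and -0.85 without WKY4. Sod1 and Sod2 gave r = 0.79 (exact permutation p = 0.0417, adjusted p = 0.219) and rho = 0.90 (exact permutation p = 0.0104, adjusted p = 0.0973). Without the 2 libraries farthest from the median of Sod1, that r was 0.52, and without WKY4 it was 0.70. The values without WKY4 were added after the data were seen, and 0 of the 21 pairs passed there too, with 3 at an unadjusted p under 0.05. The known targets Nqo1, Hmox1 and Gclc gave r = 0.49, 0.51 and -0.32 with Nfe2l2 within strains (exact permutation p = 0.241, 0.276 and 0.583). These values pool the strains. Taken by strain, r was 0.36, 0.97 and -0.51 in SHR and 0.62, 0.10 and 0.22 in WKY, which was not tested.

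**Figure D4:**
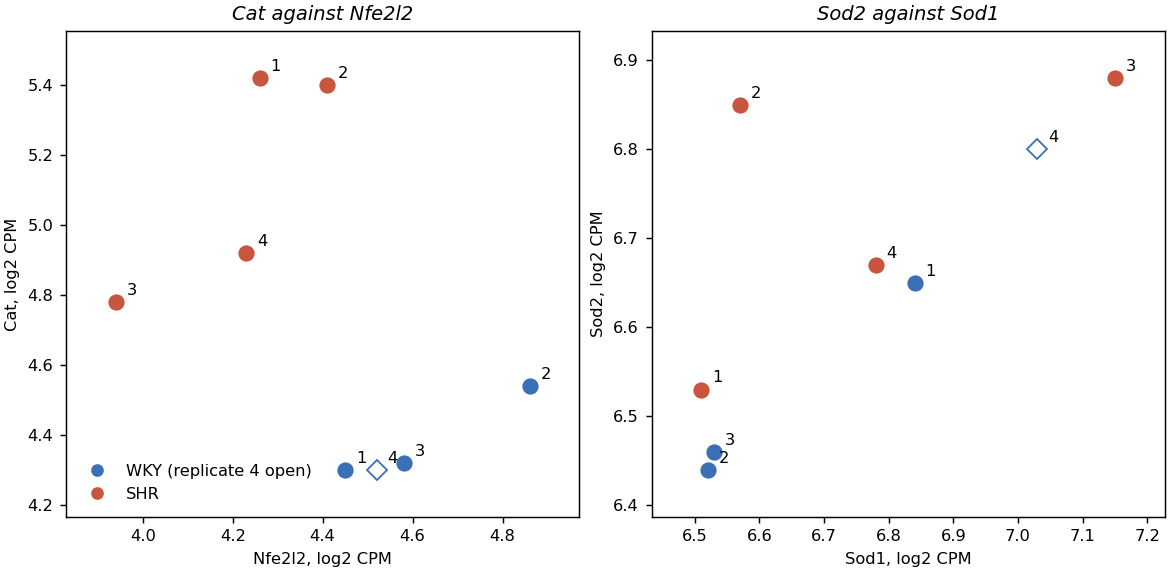
Log2 CPM of Cat against Nfe2l2 (left) and of Sod2 against Sod1 (right), with 1 point per library, numbered by replicate; WKY is blue, with replicate 4 open, and SHR is red. On the left the strains form separate groups, with Cat higher and Nfe2l2 lower in SHR, and on the right they are mixed, with SHR replicate 3 and WKY replicate 4 at the upper right.

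The genes whose pattern was most like that of Nfe2l2 were sought among the 13355 other tested genes whose mean log2 CPM was 1 or more, by Pearson r of log2 CPM over the 8 libraries. The 2 highest were ENSRNOG00000021138 (r = 0.99) and ENSRNOG00000003947 (r = 0.98), which have no symbol in the files. They are given as a description, as the highest of 13355 values. By the same measure, 4.46% of these genes were more like Nfe2l2 than Nqo1 was, 36.2% than Hmox1 and 63.7% than Gclc. The shares were 79.0% for Cat, 87.4% for Sod1 and 91.1% for Sod2. These likenesses were computed over all 8 libraries only, with the strain means left in. They therefore mix the strain difference with variation within strains. With the strain means removed, r with Nfe2l2 was 0.49 for Nqo1, 0.51 for Hmox1, -0.32 for Gclc and 0.79 for Cat. For Sod1 and Sod2 it was -0.82 and -0.49.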

How the data were processed

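The submitters' processing notes name build rn6 and the tools HISAT2 2.0.4, StringTie 1.3.4d and cutadapt 1.9; annotation release and strand setting: not given in the sources used here. Raw counts per Ensembl gene were deposited by the authors, and their 8 single-library tables equalled the matrix. A count of exactly 4 was more frequent than a count of exactly 3 in each library, so counting intervals were not used. Libraries were grouped by title; 4 single-library headers carry another number than the title.

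Differential expression was fitted on the whole table with edgeR 4.0.16 (R 4.3.3): quasi-likelihood test, TMM scaling, default filterByExpr, strain as the only term, Benjamini-Hochberg over 16867 genes (17029 without WKY4). Calls needed an adjusted p under 0.05. Standard errors are the fold change over the square root of F. Log2 CPM carried a prior count of 2. Alternatives were RLE scaling, no or a stricter filter (1 CPM in 4 libraries), robust empirical Bayes, DESeq2 1.42.0 and limma-voom (limma 3.58.1). Others were the replicate block, with the replicate number as a further term, and leaving out each library. The edgeR fit was tested on simulated data. The 7 genes, all of them named by rule with the 2 genes most like Nfe2l2, and the 13 pathway and marker lists were chosen with earlier results of these data known; 0 lists could be matched to IDs.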

Additional observations from a re-analysis of the deposited data

Results flagged for a closer look

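Each gene was screened in each strain for a library far from the other 3, in 14 sets of 4 libraries, and 2 sets held one. Chance gives about 1 in 20, and the sets share libraries. Hmox1 was at 2.87 CPM in WKY replicate 3, against 5.15 to 5.33 CPM in the other WKY libraries. Cat was at 23.2 CPM in WKY replicate 2, against 19.6 to 19.9 CPM in the other WKY libraries, and still below the SHR libraries.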

How the results depend on the processing

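The number of the 7 genes called was 0 in edgeR over all 8 libraries, and 1, always Cat, with DESeq2, without WKY replicate 4, without it under RLE scaling and without it in DESeq2. Leaving out each library gave 0 to 1. The cause was not tested. The number with no overlap between the strains was 2, and 2 to 3 when each library was left out. Over 19 alternatives, 133 values of single genes held 118 on the same side of 0 and of the threshold, 4 newly called (all Cat) and 11 on the other side of 0, none of them called. With each library left out, the ranges were -0.07 to 0.26 for Hmox1, -0.11 to 0.14 for Sod1 and -0.04 to 0.06 for Gclc. The 11 were Hmox1 at -0.07 without WKY replicate 3, Sod1 at -0.11, -0.04 and -0.03 without SHR replicate 3, WKY replicate 2 and WKY replicate 3, and Gclc at -0.04 and -0.00 without SHR replicates 1 and 3, -0.00 in limma-voom, and -0.01, -0.01, -0.01 and -0.02 without WKY replicate 4 in edgeR with TMM, in edgeR with RLE, in DESeq2 and in limma-voom. Nfe2l2 (-0.45 to -0.29), Nqo1 (-0.28 to -0.17), Cat (0.70 to 0.91) and Sod2 (0.10 to 0.23) kept their direction in all 19. The replicate block groups libraries by the number in their titles, a pairing that the labels do not state. It called 0 of the 7, beside 0.00593% of all genes tested, with Cat at 0.77 and Nfe2l2 at -0.39 (edgeR, adjusted p = 0.332 and 0.461). With the block and without WKY replicate 4, Cat was at 0.82 (adjusted p = 0.0803), and 0.722% of all genes were called. In their deviations from the strain means, same-numbered libraries had correlations of -0.0928, -0.0034, -0.1566 and -0.1527. Differently numbered libraries of the 2 strains ran from -0.0633 to 0.1475, the highest being SHR replicate 3 with WKY replicate 4. Whether libraries were handled in pairs was not tested. The relations among the genes passed for 0 of 21 pairs over all 8 libraries, without WKY replicate 4, with strain means removed, with both together (added after the data were seen) and under RLE scaling. The precision differed by gene: the 95% interval ran from 0.741-fold to 1.56-fold for Hmox1 and from 0.888-fold to 1.13-fold for Gclc.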

Other observations

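Some libraries lay at an end of their strain's range for several of the genes. SHR replicate 3 was the lowest SHR library for Nfe2l2, Hmox1 and Cat and the highest for Sod1 and Sod2, which makes 5 of the 7 genes. For Sod1 and Sod2 it was the highest, and for Nfe2l2 the lowest, of all 8 libraries. WKY replicate 2 was the highest WKY library for Nfe2l2, Nqo1 and Cat and the lowest for Sod1 and Sod2, also 5 of 7. WKY replicate 4 was the highest WKY library for Hmox1, Sod1 and Sod2 and the lowest for Nqo1 and Gclc, yet it held the highest or lowest value of all 8 libraries for 0 of the 7 genes. SHR replicate 4 and WKY replicate 3 were at an end for 1 gene each.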
